A study of Mus musculus with 19 samples.

Results

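Transcription factors of the TEAD family bind DNA but need a partner to activate genes, and their best known partner is YAP, a coactivator that the Hippo kinase cascade keeps out of the nucleus. When Hippo signalling is low, YAP enters the nucleus and docks on TEAD, and in the liver this drives growth of the organ and loss of the mature hepatocyte state. Described here are the promoters at which a TEAD peak was absent from the peak list of uninduced mouse livers, was called within 3 days of YAP induction and was still called at 7 days. These early sustained promoter peaks were selected on the TEAD lists themselves: a TEAD peak at 7 d had to overlap by at least 1 bp a TEAD peak at 3 d and no TEAD peak of uninduced livers, and had to touch a promoter, taken as the 2000 bp before and the 1000 bp after a protein-coding transcription start. The rule found 6306 peaks, 16.2% of the 38984 TEAD peaks at 7 d and 64.7% of the 9753 that touched a promoter.

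The study profiled YAP and TEAD by chromatin immunoprecipitation and sequencing (ChIP-seq) in 19 liver samples of C57BL/6 mice. Induced animals were labelled ROSA26-rtTA-IRES-EGFP; tetYAP and ate doxycycline food for 3 days (3 d) or 7 days (7 d). They carried a doxycycline-driven, activated YAP, and per the study's methods the transactivator was released by a Cre recombinase under the albumin promoter, so induction was directed to hepatocytes while the chromatin came from whole liver. Uninduced animals (WT) were labelled ROSA26-rtTA-IRES-EGFP; WT, lacked the YAP transgene and ate the same food for 7 days, and ages are not given in the sources used here. Each group held 3 samples, or 4 for TEAD at 7 d, and the replicates of a group were merged before peaks were called. Every value below is therefore 1 value per group, with no spread between livers, and intervals cover counting error over peaks only. The antibody used for TEAD was raised to TEAD4 and is described in the study's methods as also recognising TEAD1 and TEAD3.

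After merging, TEAD was read with 35168765 (WT), 55032002 (3 d) and 38523843 (7 d) tags, and YAP with 34260362 to 54661175. The peak caller extended TEAD tags to 400 bp in WT livers but to 207 bp at 3 d and 206 bp at 7 d. The lowest pileup (fragments stacked over the summit) in the WT list was 0.682 per 1000000 tags, and 2152 of the 6306 early sustained promoter peaks (34.1%) lay below that value at 7 d. These heights were built on unlike fragment lengths, so 34.1% is not the share under the limit of the WT list. Scaled to the depth of the WT library, 6119 peaks still met the rule, and with the background also raised to a 400 bp fragment the number was 2792. In that second setting the pileups were not extended to 400 bp, so it does not imitate the calling of the WT list. Whether these sites were free of TEAD in WT livers or under the limit of that list cannot be told apart.

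Sequences under strong peaks that held a TEAD motif are given first. TEAD proteins recognise the letters GGAATG, known as the MCAT element. Where the element lies on the minus strand, it reads as CATTCC on the plus strand. The windows below run 100 bp to either side of the summit, are read from NCBIM37 (mm9) on the plus strand from 5′ to 3′, and carry the motif in capitals. The first 10 belong to the peaks that ranked highest by TEAD or by YAP enrichment at 7 d and held the motif. Among the 12 highest by TEAD, Ifitm7, Gm608, Mapk8, Zfp579 and Nedd9 held no motif and are not printed. Among the 12 highest by YAP, the same applied to Gm608, Nedd9, Ap1ar, Osbpl9 and Trpm8. The last 3, at genes of the Hippo pathway, were added after their values were seen.
Lrtm2 (chr6:119279464-119279664): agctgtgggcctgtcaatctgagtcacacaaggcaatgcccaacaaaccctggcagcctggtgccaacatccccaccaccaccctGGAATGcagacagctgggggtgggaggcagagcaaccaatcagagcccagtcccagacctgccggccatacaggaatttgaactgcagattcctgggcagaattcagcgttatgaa
Ect2 (chr3:27053960-27054160): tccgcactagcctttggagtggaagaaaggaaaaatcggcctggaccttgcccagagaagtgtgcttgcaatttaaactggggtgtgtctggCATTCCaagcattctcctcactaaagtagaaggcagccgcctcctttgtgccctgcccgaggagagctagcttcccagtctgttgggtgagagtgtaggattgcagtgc
Zfp367 (chr13:64256598-64256798): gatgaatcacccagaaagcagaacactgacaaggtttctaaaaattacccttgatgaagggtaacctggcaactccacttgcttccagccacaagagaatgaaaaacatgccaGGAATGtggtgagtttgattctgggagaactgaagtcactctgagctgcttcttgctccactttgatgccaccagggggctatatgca
Kdm2b (chr5:123441490-123441690): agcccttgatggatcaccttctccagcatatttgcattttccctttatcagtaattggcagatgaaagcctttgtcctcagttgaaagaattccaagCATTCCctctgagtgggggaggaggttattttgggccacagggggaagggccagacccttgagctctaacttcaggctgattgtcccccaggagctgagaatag
Vps72 (chr3:94913238-94913438): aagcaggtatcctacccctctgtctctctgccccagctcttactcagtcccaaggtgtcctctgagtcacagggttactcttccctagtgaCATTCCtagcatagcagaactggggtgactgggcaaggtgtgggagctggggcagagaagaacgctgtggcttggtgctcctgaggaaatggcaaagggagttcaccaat
Rapgef1 (chr2:29558654-29558854): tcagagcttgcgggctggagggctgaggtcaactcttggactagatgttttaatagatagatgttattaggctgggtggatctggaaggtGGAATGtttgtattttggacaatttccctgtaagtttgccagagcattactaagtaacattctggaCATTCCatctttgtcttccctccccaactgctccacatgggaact
2900073G15Rik (chr17:71348593-71348793): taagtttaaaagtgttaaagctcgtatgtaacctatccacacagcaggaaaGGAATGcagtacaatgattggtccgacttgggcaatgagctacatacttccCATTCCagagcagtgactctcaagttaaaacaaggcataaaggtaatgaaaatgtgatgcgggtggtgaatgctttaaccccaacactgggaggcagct
Lrrc1 (chr9:77393935-77394135): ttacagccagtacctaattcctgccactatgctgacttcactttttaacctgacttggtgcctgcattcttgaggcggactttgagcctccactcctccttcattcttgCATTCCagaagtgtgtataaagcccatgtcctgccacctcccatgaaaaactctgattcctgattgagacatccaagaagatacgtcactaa
Slc39a13 (chr2:90912340-90912540): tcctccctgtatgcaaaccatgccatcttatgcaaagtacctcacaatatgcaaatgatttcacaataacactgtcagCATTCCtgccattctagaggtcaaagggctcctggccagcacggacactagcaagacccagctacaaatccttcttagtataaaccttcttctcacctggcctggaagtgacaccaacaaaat
Slpi (chr2:164182445-164182645): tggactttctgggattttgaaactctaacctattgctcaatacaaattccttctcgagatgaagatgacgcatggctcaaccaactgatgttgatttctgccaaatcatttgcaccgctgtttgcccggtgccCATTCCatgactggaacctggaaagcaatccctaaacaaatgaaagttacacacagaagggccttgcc
Amotl2 (chr9:102618062-102618262): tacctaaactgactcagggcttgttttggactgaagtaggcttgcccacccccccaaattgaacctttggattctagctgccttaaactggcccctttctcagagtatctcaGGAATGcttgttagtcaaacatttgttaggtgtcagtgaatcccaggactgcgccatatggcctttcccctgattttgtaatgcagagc
Vgll3 (chr16:65815283-65815483): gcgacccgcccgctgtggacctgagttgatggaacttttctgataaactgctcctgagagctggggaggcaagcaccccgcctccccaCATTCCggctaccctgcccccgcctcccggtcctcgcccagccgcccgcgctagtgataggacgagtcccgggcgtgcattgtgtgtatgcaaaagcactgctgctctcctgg
Yap1 (chr9:8004618-8004818): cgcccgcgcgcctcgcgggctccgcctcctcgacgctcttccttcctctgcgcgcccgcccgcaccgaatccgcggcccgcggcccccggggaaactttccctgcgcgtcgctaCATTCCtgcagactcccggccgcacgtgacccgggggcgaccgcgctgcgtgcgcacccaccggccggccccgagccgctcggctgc

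In Kdm2b, 2900073G15Rik and Ect2 the motif lay 0.5, 4.5 and 5.5 bp from the summit, measured from its middle. Rapgef1 and 2900073G15Rik each held 2 copies, 1 on each strand. The windows of Kdm2b and Zfp367 contained no CpG dinucleotide, whereas those of Vgll3 and Yap1 were rich in CpG, with an observed-to-expected ratio of 0.688 and 1.24 and a GC content of 64.2% and 78.1%.

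Most early sustained promoter peaks were weak, and a small number were very strong. Fold enrichment, the ratio of the pileup to the local background, was below 5 at 988 peaks, from 5 to under 10 at 4124, from 10 to under 20 at 1084 and at least 20 at 110. The median at 7 d was 6.83-fold (middle 50% of peaks: 5.42 to 9.08), and the extremes were 3.25-fold and 60.6-fold. Constitutive promoter peaks, those that also overlapped a WT peak, had a median of 15.6-fold over 1707 peaks, and promoter peaks called at 7 d but neither at 3 d nor in WT livers had 5.37-fold over 1740. Early sustained peaks outside promoters had a median of 7.99-fold over 15977. Of the 6306 peaks, 128 (2.03%) were among the strongest 10% of all TEAD peaks at 7 d.

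The strongest peak lay in an intron of Cacna2d4, 342 bp upstream of a start of Lrtm2. It was enriched 18.2-fold at 3 d and 60.6-fold at 7 d, and ranked 47 of all 38984 TEAD peaks. The next was found 1260 bp upstream of Ect2, which encodes an exchange factor for small GTPases needed for cytokinesis, with 31.5-fold at 3 d and 56.4-fold at 7 d. Peaks of like height stood upstream of Zfp367 (17.6-fold and 45.7-fold), a zinc finger gene, in an intron of Kdm2b (12.3-fold and 45.5-fold), which encodes a histone demethylase that binds unmethylated CpG, and upstream of Vps72 (7.06-fold and 45.2-fold), a subunit of chromatin remodelling complexes. The remaining 7 of the highest 12 were at Ifitm7 (also in the promoter of 2900011O08Rik), Gm608, Mapk8, Rapgef1, 2900073G15Rik, Zfp579 and Nedd9, with 38.2-fold to 45.2-fold at 7 d. Mapk8 encodes the kinase JNK1, Rapgef1 an exchange factor for the GTPase RAP1 and Nedd9 a scaffold of focal adhesions. All 12 were higher at 7 d than at 3 d. The summit of 9 of the 12 lay more than 400 bp from the nearest coding start.

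Most of these promoters had a higher value at 7 d than at 3 d, with no replicate check. Expressed as pileup per 1000000 tags, the median was 0.654 at 3 d and 0.779 at 7 d, and 5052 of the 6306 peaks (80.1%) were higher at 7 d. The median ratio of 7 d to 3 d was 1.23 (middle 50%: 1.05 to 1.47), against 1.31 at constitutive promoter peaks and 1.37 at early sustained peaks outside promoters. A ratio of at least 1.5 was seen at 1408 peaks (22.3%), a ratio between that and its inverse at 4808 (76.2%), and a fall by at least that factor at 90 (1.43%). The background that the caller used at the summits was 6.09 fragments at 3 d and 4.25 at 7 d (medians). The ratio of fold enrichments, which divides by it, had a median of 1.24. That is no separate check, since it rests on the same pileups and the background differed much as the tag totals did.

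**Figure D1:**
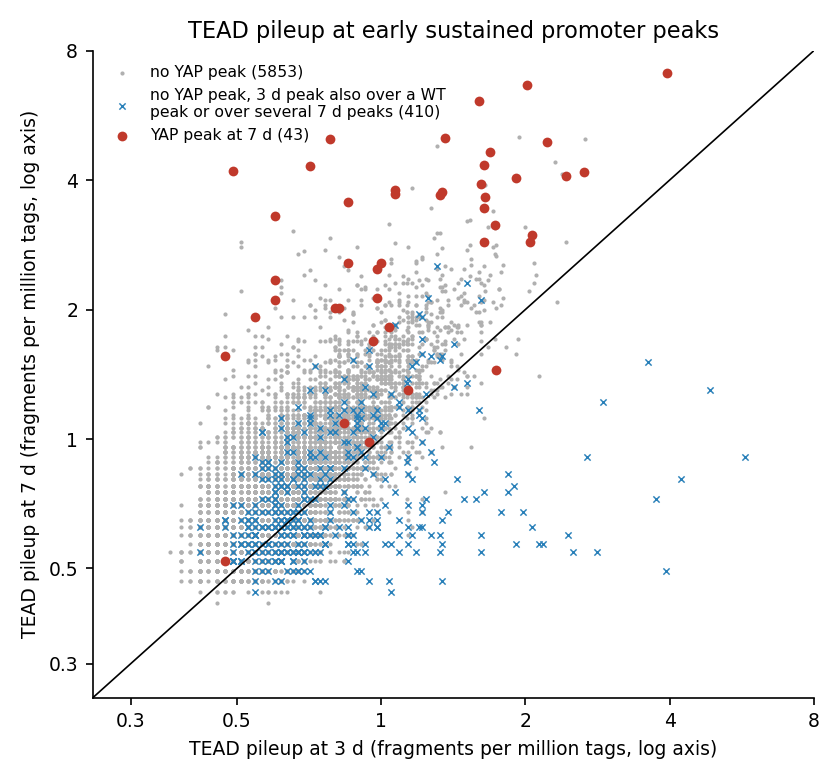
TEAD pileup at 3 d (horizontal, fragments per 1000000 tags, log axis) against 7 d (vertical, log axis) for the 6306 early sustained promoter peaks, each point 1 peak, with the line of equal height. The 43 peaks that overlapped a YAP peak at 7 d (red) lie mostly above the line, and most points far below it are blue crosses, peaks whose 3 d partner also covered a WT peak or several 7 d peaks.

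Among all members the ratio of 7 d to 3 d was largest at Nedd9, where the pileup went from 0.491 to 4.21 per 1000000 tags, a ratio of 8.57. Among peaks enriched at least 10-fold at either time it was followed by Vps72 (6.38), Fgfbp1 (6.08), Klhl31 (5.66), Ptprf (5.51) and Pcx (5.50). Fgfbp1 encodes a carrier of fibroblast growth factors, Ptprf a receptor tyrosine phosphatase and Pcx the pyruvate carboxylase that feeds gluconeogenesis. These 6 peaks were all weak at 3 d, with 4.25-fold to 7.06-fold enrichment, and stood at 25.4-fold to 45.2-fold at 7 d.

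The lowest ratios had a feature of the peak lists in common. At Jub, which encodes the LIM protein Ajuba that inhibits the Hippo kinases, the values were 28.6-fold at 3 d and 4.48-fold at 7 d, a ratio in pileup per 1000000 tags of 0.125. Tenc1 (0.158), Vkorc1 (0.190), Baat (0.194), Rassf7 (0.194) and Abcd2 (0.217) followed. At each of these 6, the matched 3 d peak also covered a WT peak and more than 1 peak at 7 d, and the paired summits were 605 to 937 bp apart. Of the 90 peaks that were lower by a factor of at least 1.5, 67 had a 3 d partner that covered several 7 d peaks, and the median distance between the paired summits was 572 bp, against 46 bp over all members.

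With the 410 peaks of that kind set aside, an alternative chosen after seeing the data, 5896 remained, with a median ratio of 1.24 and a lowest ratio of 0.522. Only 23 of them were at least 1.5 times lower at 7 d. The smallest ratios there among peaks of at least 10-fold enrichment at either time, chosen after their values were seen, were at Hspe1 (1.16 per 1000000 tags at 3 d, 0.623 at 7 d), Derl3 (1.36 and 0.753), Ghr (1.22 and 0.675) and Hsp90ab1 (1.14 and 0.649). Hspe1 and Hsp90ab1 encode chaperones of mitochondria and cytosol, Derl3 acts in degradation from the endoplasmic reticulum, and Ghr is the growth hormone receptor.

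Summits clustered just upstream of the start. Of the 6306 peaks, 3455 (54.8%, 95% Wilson interval 53.6% to 56.0%) had their summit within 250 bp of the nearest protein-coding start, and the single most filled stretch of 250 bp was the one ending at the start, with 39.9% of summits. The median position was 84 bp upstream. Constitutive promoter peaks were placed alike, with 56.5% within 250 bp, and the difference of -1.68 points had an interval from -4.32 to 0.978. Promoter peaks found at 7 d only were more dispersed, with 36.3% within 250 bp, 18.5 points fewer (15.9 to 21.0).

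**Figure D2:**
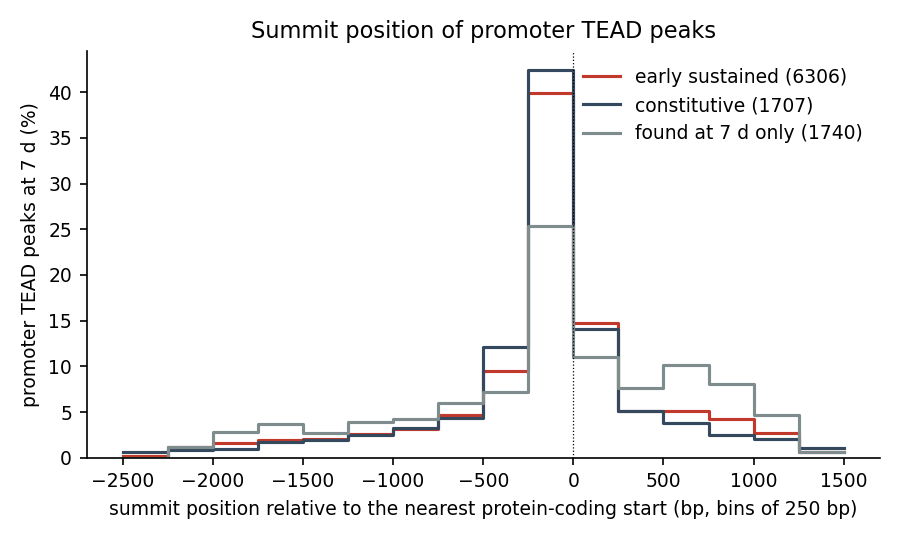
Position of the TEAD summit relative to the nearest protein-coding start (horizontal, bp in bins of 250 bp, negative upstream) as a share of promoter TEAD peaks at 7 d (vertical, %), for early sustained, constitutive and 7 d-only peaks. Early sustained and constitutive peaks share a sharp maximum just upstream of the start, and 7 d-only peaks have a lower maximum and more summits beyond 500 bp downstream.

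The sequence under the summit was examined next, since the rule made no use of it. The motif GGAATG on either strand occurred within 100 bp of the summit at 1411 early sustained promoter peaks (22.4%, 21.4% to 23.4%). In windows of the same length placed 500 bp to either side it occurred in 8.94%, and around all 45961 protein-coding starts in 7.88% (7.64% to 8.13%). The excess over the flanks was 13.4 points (12.3 to 14.6). Where the motif was present its middle was typically 24.5 bp from the summit, and 135 peaks (2.14%) held 2 or more copies. More than 3 in 4 of these peaks thus had no such motif near the summit, which says only that these letters are not in the window.

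Other classes of TEAD peaks held the motif more often. The share was 45.4% at constitutive promoter peaks, 23.0 points higher (20.5 to 25.6), 33.5% at early sustained peaks outside promoters, 11.1 points higher (9.84 to 12.4), and 25.7% at promoter peaks found at 7 d only. Enrichment differed between the classes as well, and within the strongest 10% of TEAD peaks the shares were closer, at 55.5% of 128 early sustained promoter peaks, 59.2% of 1260 early sustained distal peaks and 60.1% of 631 constitutive promoter peaks. There the differences of 3.74 points (-5.03 to 12.8) and 4.59 points (-4.59 to 14.0) had intervals that included 0. With the strongest 5695 peaks by p-value of each list, the differences were 9.20 points (0.954 to 17.3) to distal and 9.44 points (1.05 to 17.7) to constitutive promoter peaks. In the weakest 10%, the motif was found at 14.0% of early sustained promoter peaks and 18.6% of early sustained distal peaks. Early sustained promoter peaks with the motif had a median of 8.01-fold at 7 d and those without it 6.60-fold.

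Many mammalian promoters are CpG islands, stretches that escape the loss of CpG through methylation. With a window called CpG-rich at a GC content of at least 50% and an observed-to-expected CpG ratio of at least 0.6, 45.0% of early sustained promoter peaks were CpG-rich (43.7% to 46.2%), against 46.6% of constitutive promoter peaks, 31.8% of promoter peaks found at 7 d only and 48.3% of all coding starts. CpG-rich peaks of the early sustained class held the motif in 12.8% of windows and the others in 30.2%, a difference of 17.5 points (15.5 to 19.4). The motif is also rarer at CpG-rich starts in general, with 4.65% against 10.9%. At constitutive promoter peaks the shares were 42.7% in CpG-rich and 47.7% in other windows. Median enrichment was 6.60-fold in CpG-rich and 7.02-fold in other early sustained promoter peaks, but 18 of the 2836 CpG-rich peaks and 110 of the 3470 others were among the strongest 10%.

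**Figure D3:**
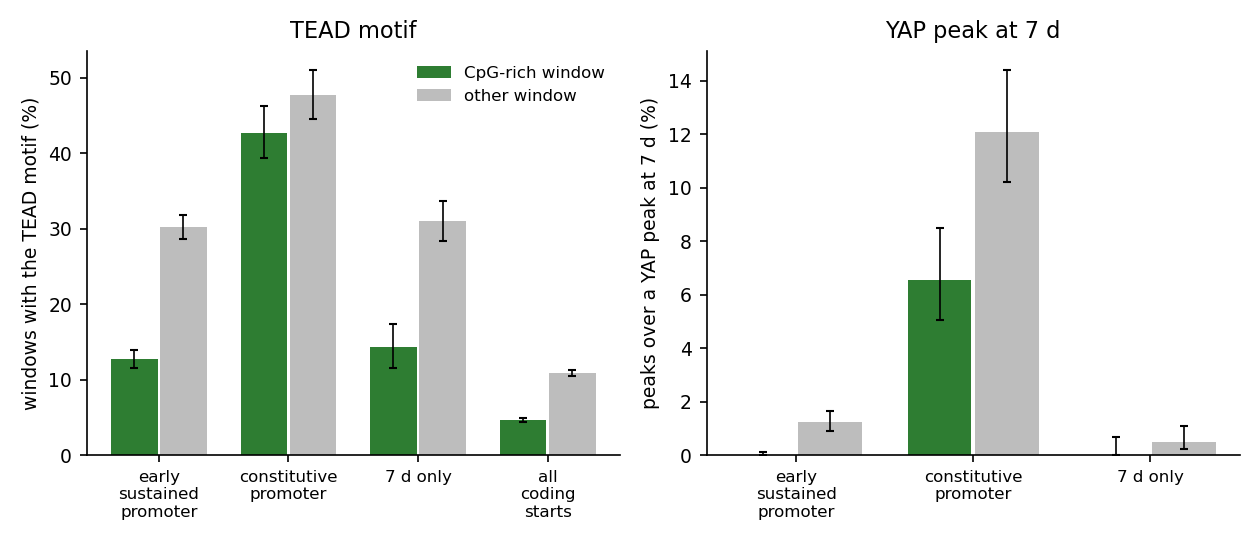
Share of summit windows with the TEAD motif (left, %) and share of peaks over a YAP peak at 7 d (right, %), in CpG-rich (green) and other windows (grey), with 95% Wilson intervals. Among early sustained promoter peaks the motif share is 12.8% in CpG-rich windows and 30.2% in others, and no CpG-rich peak overlaps YAP, while constitutive promoter peaks have YAP in both kinds of window.

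Motifs of other factors were counted in the same windows on both strands, as a description. The ETS motif CCGGAAG was present at 9.97% of early sustained promoter peaks and 8.61% of all coding starts, and the SP/KLF motif GGGCGG at 33.6% and 38.6%. The ETS motif shares GGAA with the TEAD motif but differs in the next base. The same GGAA on 1 strand therefore cannot count for both, although sites on opposite strands can overlap. The NFY motif CCAAT stood at 30.8% of these peaks and 24.6% of starts, the CRE motif TGACGTCA at 2.01% and 1.65%, the NRF1 motif GCATGCGC at 3.30% and 2.30%, the E-box CACGTG at 6.83% and 5.22%, and the YY1 motif AAGATGGCG at 1.25% and 1.85%. Motifs of liver factors were rarer here than at early sustained peaks outside promoters. The HNF4 motif CAAAGTCC occurred in 1.89% against 4.12%, the CEBP motif TTGCNNAA in 10.2% against 17.4%, the FOXA motif TGTTTAC in 3.00% against 6.75% and the GATA motif AGATAA in 5.88% against 12.2%. At all coding starts these shares were 0.820%, 5.51%, 1.66% and 5.22%. The AP-1 motif TGANTCA, bound by FOS and JUN proteins that often act beside TEAD, was present at 5.09% of early sustained promoter peaks, 8.83% of early sustained distal peaks and 4% of starts.

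YAP itself was detected at very few of these promoters. A YAP peak at 7 d lay over 43 of the 6306 (0.682%, 0.507% to 0.917%), against 3.58% of all TEAD peaks at 7 d. The share was 9.49% at constitutive promoter peaks, 8.81 points higher (7.49 to 10.3), and 2.99% at early sustained distal peaks, 2.30 points higher (1.96 to 2.63). Promoter peaks found at 7 d only had 0.345%, and the difference of 0.337 points had an interval from -0.105 to 0.637. With the strongest 5695 peaks by p-value of each TEAD list, which left 161 members, the difference to constitutive promoter peaks was 4.98 points (-1.37 to 9.89) and that to early sustained distal peaks 13.2 points (6.74 to 18.1). The excess over 7 d-only promoter peaks was then -3.65 points (-12.1 to 4.3), and among peaks of at least 5-fold enrichment it was 0.667 points (0.286 to 1.03). Both cuts were applied to the lists before peaks were classed. The 7 d-only peaks there numbered 123 and 2664, against 1740 without a cut. They can thus lie over a 3 d peak, or at 5-fold also a WT peak, that the cut removed. At 3 d and in WT livers a single member overlapped a YAP peak, the same one in both lists. The YAP list at 7 d held 1478 peaks from a library of 34260362 tags, and a YAP signal below its limit would not be seen.

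Overlap with YAP followed TEAD enrichment closely. Of the 43 peaks, 30 were among the strongest 10% of TEAD peaks, and their median TEAD enrichment was 9.42-fold at 3 d and 29.9-fold at 7 d, against 5.58-fold and 6.78-fold at the other members. Their median ratio of 7 d to 3 d in pileup per 1000000 tags was 2.53, against 1.23. Within the strongest 10%, YAP was found over 23.4% of early sustained promoter peaks (16.9% to 31.5%), beside 30% of early sustained distal peaks and 21.2% of constitutive promoter peaks. The differences there were 6.56 points (-1.85 to 13.6) and -2.20 points (-10.8 to 5.11), and both intervals included 0. This split by fold enrichment kept the full classes, with 128 members in the strongest 10%. The cut by p-value given above also shortened the 3 d list, which left 161 members, and the gap to distal peaks was wider there. The 2 settings thus differ in more than the measure of strength.

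**Figure D4:**
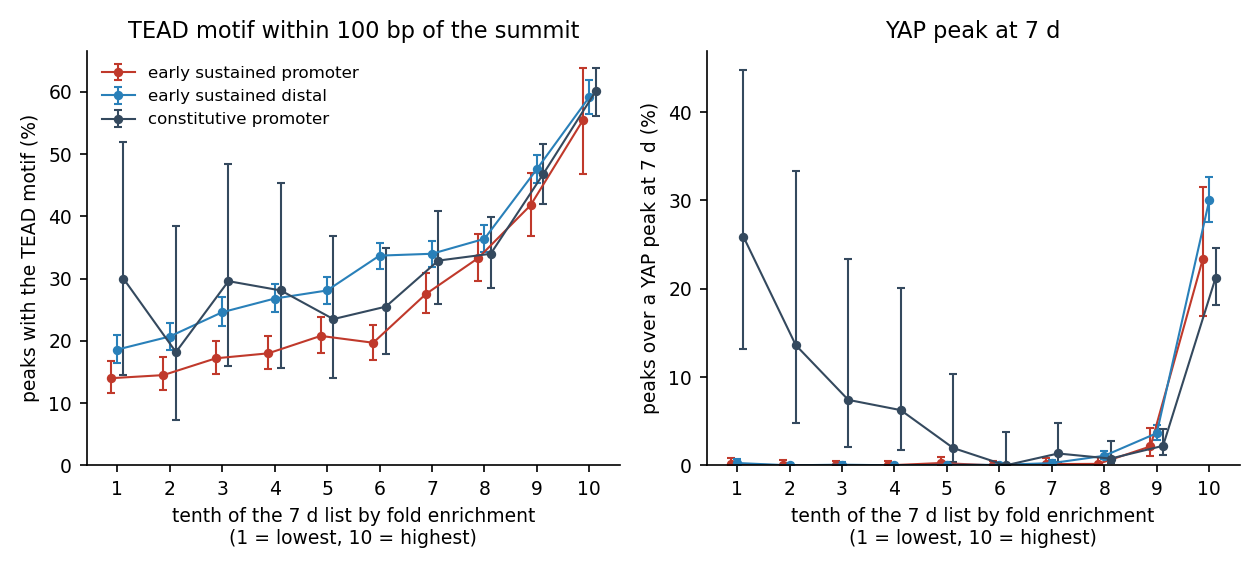
Share of peaks with the TEAD motif within 100 bp of the summit (left, %) and over a YAP peak at 7 d (right, %) in each 10% of the 7 d TEAD list ordered by fold enrichment, for early sustained promoter, early sustained distal and constitutive promoter peaks, with 95% Wilson intervals. Motif shares are highest in the strongest 10% in all 3 classes, where their intervals overlap, and YAP shares of early sustained peaks are highest there too. The high YAP shares of weak constitutive peaks rest on few peaks (7 of 27 in the lowest 10%).

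The YAP-positive promoters also differed in sequence and place. None of the 2836 CpG-rich members overlapped a YAP peak, which allows a share of up to 0.106%, against 43 of the 3470 other members (1.24%, 0.921% to 1.66%). At constitutive promoters 6.56% of CpG-rich peaks did (5.04% to 8.50%). These shares are not matched for TEAD enrichment: of the CpG-rich constitutive peaks, 296 were among the strongest 10% and held 46 of the 52 overlaps, whereas 18 CpG-rich members ranked there, with no overlap, and 110 other members, of which 30 overlapped YAP. The motif GGAATG was found at 26 of the 43 (60.5%, 45.6% to 73.6%), 38.4 points more often than at the other members (23.4 to 51.6). Among all 128 members in the strongest 10%, with or without YAP, it was found at 55.5%. Only 4 of the 43 had their TEAD summit within 250 bp of a coding start (9.30%), against 55.1% of the rest. The motif and distance contrasts were not matched for TEAD enrichment either. The YAP summit lay within 100 bp of the TEAD summit at 38 of the 43, with a median distance of 35 bp.

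YAP enrichment at the 43 peaks ranged from 3.69-fold to 12.9-fold, with a median of 6.09-fold, close to the 5.72-fold of all YAP peaks at 7 d. The highest values were at Ect2 (12.9-fold), Lrtm2 (11.8-fold), Gm608 (11.6-fold), 2900073G15Rik (10.8-fold) and Kdm2b (9.82-fold). Ap1ar (9.39-fold), Osbpl9 (8.78-fold), Nedd9 (8.30-fold), Slpi (8.08-fold), Trpm8 (7.64-fold), Lrrc1 (7.42-fold) and Slc39a13 (7.26-fold) completed the first 12. Slpi encodes a secreted inhibitor of leukocyte proteases and Slc39a13 a zinc transporter. In 11 of these 12, TEAD was enriched at least 26.2-fold at 7 d.

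Trpm8 was the exception, with TEAD at 4.27-fold at 3 d and 4.71-fold at 7 d and no motif. It was also the 1 member with a YAP peak at 3 d and in WT livers. Its surroundings were dense in YAP peaks without induction: 23 of the 156 YAP peaks of WT livers lay within 50 kb of it.

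The early sustained peaks lay at the promoters of 5859 protein-coding genes, 26.2% of the 22372 annotated. Of these genes, 513 (8.76%) also had a constitutive promoter peak, near the 8.27% of all protein-coding genes, and 5346 (91.2%) had none. A total of 1080 genes held 2 or more early sustained peaks, and 812 peaks (12.9%) lay in the promoters of more than 1 gene. Counts for gene lists are given beside that share, without a test, and the strongest peak of a gene stands for it unless others are named. In whole liver, binding in more cells and stronger binding per cell cannot be told apart.

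**Figure D5:**
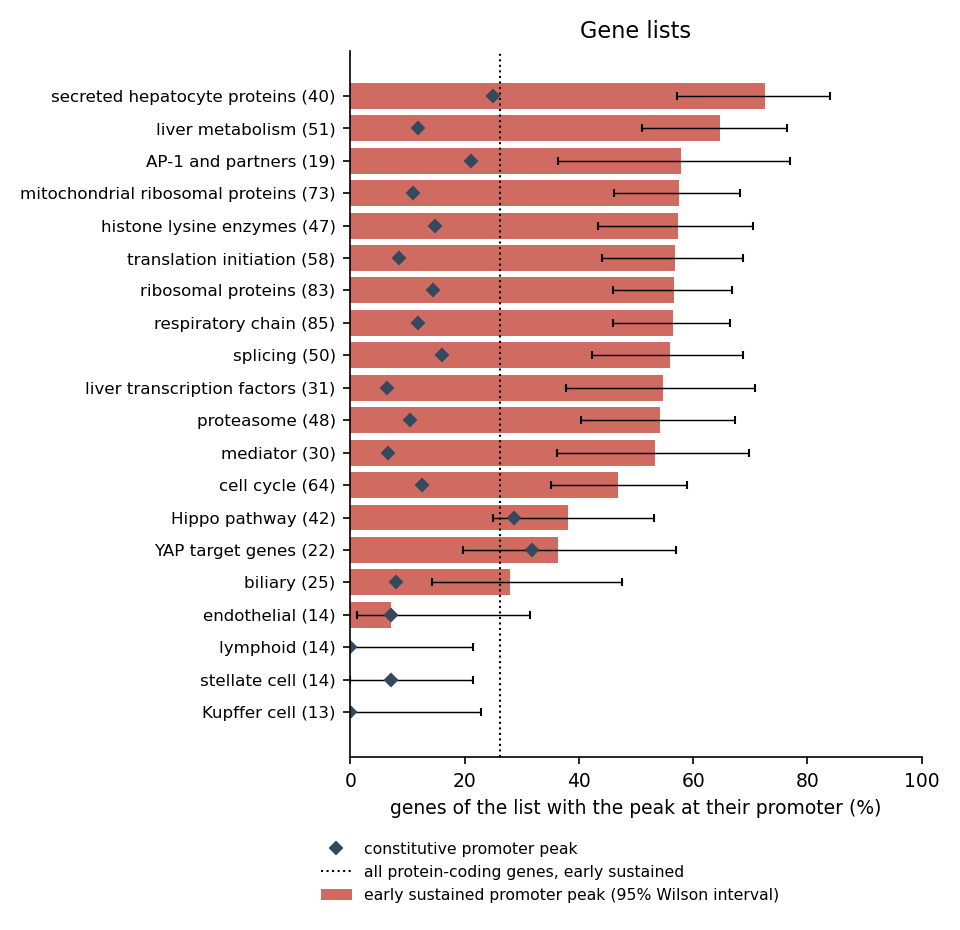
Share of the genes of each list (vertical, number of genes in brackets) with an early sustained promoter peak (bars, %, 95% Wilson intervals) and with a constitutive promoter peak (diamonds, %), with the share over all protein-coding genes as a dotted line. Lists of hepatocyte products and of basic cell functions lie above the line, the endothelial, Kupffer, stellate and lymphoid lists lie below it, and the biliary list is close to it.

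The lists of secreted hepatocyte proteins and of liver metabolism had the highest shares of the lists counted. Sets of genes that nearly all cells use, given below, had 53.3% to 57.5%, and expression was not used here. Of 40 genes for proteins that hepatocytes secrete into blood, 29 (72.5%) had an early sustained promoter peak, against 26.2% of all genes. Such a peak also stood at 33 of 51 genes of liver metabolism (64.7%). Constitutive promoter peaks stood at 10 (25%) of the first list and 6 (11.8%) of the second, against 8.27% of all genes. The highest in the first list were Vtn, for vitronectin (13.5-fold at 3 d and 22.2-fold at 7 d), Kng1, for kininogen (11.5-fold and 17.1-fold), Apob, the protein of very low density lipoprotein (4.91-fold and 14.6-fold), and Fgb, for the fibrinogen beta chain (8.90-fold and 14.1-fold). Among the highest in the second were Pcx (5.42-fold and 29.9-fold), Cyp3a11, a drug-metabolising cytochrome (11.5-fold and 19.7-fold) and Pygl, for liver glycogen phosphorylase (7.51-fold and 14.9-fold). Of the 29 and 33 strongest peaks per gene, 7 and 7 held the TEAD motif. None of the 29 was CpG-rich, and 4 of the 33 were.

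Few markers of endothelial, Kupffer, stellate and lymphoid cells had such a peak, in chromatin taken from whole liver and in short lists. An early sustained promoter peak was present at 1 of 14 endothelial genes, Tie1 (6.07-fold and 8.24-fold), and at none of 13 Kupffer cell genes, 14 stellate cell genes or 14 lymphoid genes. The interval of the endothelial share, 1.27% to 31.5%, included the 26.2% of all genes, and the upper limits of the other lists were 21.5% to 22.8%. Constitutive promoter peaks were found at 1, 0, 1 and 0 genes of the endothelial, Kupffer, stellate and lymphoid lists.

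Sets of genes that nearly all cells use were alike in their share, which lay above the 26.2% of all genes. Early sustained promoter peaks stood at 47 of 83 genes of cytosolic ribosomal proteins (56.6%), 42 of 73 of mitochondrial ribosomal proteins (57.5%), 48 of 85 of the respiratory chain (56.5%), 26 of 48 of the proteasome (54.2%), 33 of 58 of translation initiation (56.9%), 28 of 50 of splicing (56.0%), 27 of 47 of histone lysine enzymes (57.4%) and 16 of 30 of the mediator complex (53.3%). Their median enrichment at 7 d ran from 6.01-fold for the proteasome to 8.25-fold for the histone lysine enzymes, with Kdm2b as the highest. Of the 26 proteasome peaks none held the TEAD motif, and of the 47 ribosomal protein peaks 9 did. Cell cycle genes had 30 of 64 (46.9%), against 26.2% of all genes. Mcm3, part of the replicative helicase, was the highest (13.1-fold and 15.1-fold). The mitotic kinase gene Wee1 (10-fold and 12.5-fold), the checkpoint gene Bub1b (7.06-fold and 11.8-fold) and Cdk4 (7.39-fold and 11.3-fold) followed. Of these 30 peaks, 21 were CpG-rich and 3 held the motif.

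Genes of the Hippo pathway itself had 16 of 42 with an early sustained promoter peak (38.1%, 25% to 53.2%, which includes the 26.2% of all genes). Their median promoter length was 5176 bp per gene against 3001 bp over all genes. A constitutive promoter peak was present at 12 of the 42 (28.6%), and Tead1, Amotl2, Vgll4, Lats2 and Jub had both kinds, so TEAD was already called at another site of these 5 promoters in WT livers. The upstream kinases and their partners had mostly weak peaks. Stk4 and Stk3, the MST kinases, stood at 5.42-fold and 4.95-fold at 7 d, Lats2, the kinase that phosphorylates YAP, at 5.18-fold, Nf2, which recruits LATS, at 5.42-fold, and Mob1a, a LATS cofactor, at 14.4-fold. Taok1 and Taok3, which activate MST, stood at 4.71-fold and 6.60-fold. Mark2 was at 11.6-fold, and Strn and Fam40a, of the STRIPAK phosphatase complex that opposes MST, at 6.83-fold and 9.90-fold.

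At the nuclear end, Yap1 carried 2 early sustained peaks. The one 122 bp upstream of a start was 5.58-fold at 3 d and 9.90-fold at 7 d, with the motif, and that 1132 bp downstream was 4.17-fold and 6.83-fold. Tead1, for a TEAD factor, had 1 peak with the motif (4.76-fold and 12.7-fold). Vgll3, which encodes a competitor of YAP for TEAD, had 7.39-fold and 20.3-fold with the motif, and Vgll4, another, 5.09-fold and 5.18-fold without it. Amotl2, for an angiomotin that binds YAP and is itself a YAP target, was the highest of the list, with 10.7-fold and 31.4-fold, the motif 14.5 bp from the summit and a YAP peak of 5.08-fold.

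Of 22 known YAP target genes, 8 had an early sustained promoter peak (36.4%, 19.7% to 57.0%, which includes the 26.2% of all genes) and 7 a constitutive one, with both at Cyr61, Amotl2, Lats2 and Jub. Beside Amotl2, Lats2 and Jub, these were Cyr61 (4.51-fold at 3 d and 7.59-fold at 7 d, in an intron 900 bp downstream of the start with the motif 3.5 bp from the summit), Arhgef17 (6.24-fold and 8.01-fold), Crim1 (3.59-fold and 6.36-fold), Gadd45b, with 3 peaks of 4.53-fold to 5.42-fold at 7 d, and F3, for tissue factor (7.22-fold and 5.42-fold). In pileup per 1000000 tags the ratio of 7 d to 3 d was 0.747 at F3 and between 1.01 and 2.80 at the others except Jub. Apart from Amotl2, none of the 8 had a YAP peak there at 7 d.

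Genes of AP-1 and its relatives had 11 of 19 with an early sustained promoter peak (57.9%, 36.3% to 76.9%), against 26.2% of all genes. That share was near the 53.3% to 57.5% of the sets that nearly all cells use. Mafk and Mafg, small MAF partners, had the highest, at 13.8-fold and 11.1-fold at 7 d. Junb carried 3 peaks, the strongest at 8.37-fold and 9.85-fold. Fos was at 3.79-fold and 8.67-fold with a summit in its coding exon, Fosl2 at 4.43-fold and 9.43-fold, Jund at 6.76-fold and 9.08-fold, Fosb at 4.43-fold and 5.89-fold and Jun at 6.07-fold and 5.50-fold, although the pileup per 1000000 tags at Jun was 1.27 times higher at 7 d. Atf2, Atf7 and Maff completed the list, with 7.54-fold, 5.70-fold and 5.18-fold at 7 d.

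Of 31 genes of liver transcription factors, 17 had an early sustained promoter peak (54.8%, 37.8% to 70.8%) and 2 a constitutive one, with both at Ppara. The 54.8% compares with 26.2% of all genes and with 53.3% to 57.5% of the sets that nearly all cells use. Hnf4a, the factor that holds the hepatocyte programme together, had the strongest, 1620 bp upstream of a start in an intron, with 11.7-fold at 3 d and 15.4-fold at 7 d and no TEAD motif. Nr5a2, Gata4, Foxa2 and Nr1h4, the bile acid receptor FXR, followed with 11.6-fold, 11.3-fold, 10.4-fold and 10.3-fold at 7 d. Gata6 and Onecut2 stood at 9.66-fold and 8.72-fold. The nuclear receptors Ppara, Nr1i2, Nr1i3, Nr0b2, Nr2f2 and Nr2f6 ranged from 5.18-fold to 6.85-fold, and Klf15 and Tbx3 stood at 6.94-fold and 6.36-fold. A peak of 7.78-fold at the start of Sympk also lay in the promoter of Foxa3. Tbx3 and Nr2f6 were nearly the same height at both times, with ratios of 0.989 and 0.982 in pileup per 1000000 tags.

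Biliary genes, which dedifferentiating hepatocytes can take up, had 7 of 25 (28.0%), a share close to the 26.2% of all genes. The keratin gene Krt18 (5.94-fold and 11.7-fold) and Itgb4, for an integrin chain (5.25-fold and 8.25-fold, with the motif 2.5 bp from the summit), were the highest. Prom1, Hes1, Notch2, Sox4 and Notch1 stood at 8.01-fold, 7.54-fold, 6.83-fold, 5.89-fold and 5.21-fold at 7 d. Notch1 was lower at 7 d than at 3 d, with a ratio of 0.888, and Notch2 higher, with 1.12.

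The thresholds of the rule cut through a continuum. The smallest overlap with a 3 d peak was 1 bp, 16 members overlapped one by at most 20 bp (median 4.71-fold at 7 d), and 71 promoter peaks outside the class lay within 100 bp of a 3 d peak (median 4.95-fold). A gap to the nearest WT peak of at most 100 bp was found at 21 members (5.85-fold), and 3 constitutive promoter peaks overlapped a WT peak by at most 20 bp (5.18-fold). At the edge of the promoter interval, 268 members had their summit outside it (7.86-fold), and 106 early sustained peaks called distal lay within 100 bp of it (6.36-fold).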

How the data were processed

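ChIP-seq of YAP and TEAD in mouse liver was analysed from 6 deposited peak lists, 1 per group, each merged by the authors from 3 or 4 replicates. The authors masked low-quality bases, aligned reads to mm9 with BWA 0.6.2, removed duplicates and called peaks with MACS 2.0.9, with a cutoff on the p-value of 1e-05, a tag size of 51 bp and a published input of 167176362 tags as the control of all lists, per the file headers. In the deposited lists the pileup is a signal, fold enrichment is its ratio to the local background, and the authors' −log10 p-values and −log10 q-values come from the same caller. Libraries held 34260362 to 55032002 tags. With replicates merged, no p-value between conditions was computed.

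Peaks were classed by overlap with Python 3.11.15, pandas 2.3.3 and pysam 0.24.0. Starts came from GENCODE vM1 for NCBIM37, on which every peak end of a numbered chromosome or X lay within its chromosome. A 3 d peak was matched by longest overlap. Sequence windows came from numbered chromosomes and X, and peaks elsewhere (none of them members) were left out of motif shares. Pileups were scaled to 1000000 tags. Intervals are 95% Wilson, or Newcombe for differences, and a count of 0 was given a limit of 3 counts. The members, gene lists and tests were chosen with earlier results of these data known. Named peaks were the 12 highest at 7 d, 6 highest at 3 d, 6 largest and 6 smallest ratios among peaks of at least 10-fold, any with YAP at 3 d or in WT, the 12 highest in YAP, and those at genes of 5 lists (Hippo, YAP targets, AP-1, liver factors, biliary), each named by the nearest coding start. Alternatives changed the overlap, strength, promoter, motif and depth settings. Classes and motif counts were tested on simulated data. Some genes and motifs that these rules select are not reported here.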

Additional observations from a re-analysis of the deposited data

How the results depend on the processing

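The class, its main shares and the differences between classes were recomputed under 1 changed setting at a time, except where 2 are named. Peaks were classed anew each time. A peak thus changed class where its 3 d or WT partner was cut or no longer counted as overlapping. Constitutive and 7 d-only peaks below are those of each setting. Gene lists, other motifs and the splits by CpG and by strength were not recomputed. Requiring an overlap of at least 50% of the shorter peak, scaling to the tags of the WT library, or leaving out the X chromosome left each recomputed share, median and difference within its interval, with 6119 to 6221 peaks at 5716 to 5771 genes. With summits at most 100 bp apart the YAP share was 0.969%, the motif share 24.8%, the median fold 7.51, the 7 d to 3 d ratio 1.26, the YAP difference to 7 d-only promoters 0.654 points and the motif excess over flanks 16.0 points. With a −log10 p-value of at least 10 the motif share was 24.3%, the fold 7.75, the ratio 1.26 and the excess 15.1. With peaks under 5-fold cut from every list, 4550 peaks met the rule, of which 3748 belonged to the class without the cut. The others lay over a WT peak of less than 5-fold, and constitutive promoter peaks fell from 1707 to 844. In this changed class 62 of the 105 named peaks remained. The YAP share was 0.967%, the motif share 26.4%, the fold 8.67 and the share within 250 bp of a start 57.0%. The YAP differences were then 12.9 to constitutive, 2.66 to distal and 0.667 to 7 d-only peaks, and the motif differences 31.6 to constitutive peaks and 17.1 to flanks.

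The CpG-rich share was 48.5% with promoters of 1000 bp on either side, 46.7% with the summit in the promoter, 40.6% with starts of all transcripts and 31.7% at a CpG ratio of 0.75, and the share within 250 bp was 59.6%, 57.2% and 53.4% under the first 3 of these. With all transcripts the ratio was 1.24. Counting summits within 500 bp gave 69.5%. Without peaks within 1000 bp of a WT peak the share within 250 bp was 56.1% and the differences to constitutive peaks were 7.00 (YAP) and 19.1 points (motif). The motif share was 16.2% within 50 bp, 28.8% within 200 bp and 8.58% for GGAATGT.

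The class changed most with the length of the lists and with the background. With the strongest 5695 peaks by p-value of each list, 161 peaks at 177 genes and 17 named peaks remained, with a YAP share of 11.8%, a motif share of 47.8%, a fold of 19.3, a ratio of 1.62, 27.3% CpG-rich and 39.8% within 250 bp. The YAP differences were then 4.98 (-1.37 to 9.89) to constitutive, 13.2 (6.74 to 18.1) to distal and -3.65 (-12.1 to 4.3) to 7 d-only peaks, the latter reversed in sign, and the motif differences 9.44 (1.05 to 17.7) to constitutive peaks, 9.20 (0.954 to 17.3) to distal peaks and 42.9 to flanks. With tags scaled to the WT library and the background raised to 400 bp fragments, 2 changes together chosen after seeing the data, 2792 peaks at 2862 genes and 49 named peaks remained, the YAP share was 1.25%, the motif share 27.0%, the fold 8.95 and the share within 250 bp 56.1%, with differences of 3.81 and 0.723 (YAP, distal and 7 d-only) and 18.9 and 17.6 (motif, constitutive and flanks). The split of YAP and motif shares by strength was also added after seeing the data. The causes were not tested. No paired analysis was possible because each list pools its replicates, and for the same reason no replicate could be left out.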

Other observations

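The X chromosome held fewer of these promoters. An early sustained peak was present at 88 of its 932 protein-coding genes (9.44%), whereas the numbered chromosomes ranged from 21.1% to 31.4% and averaged 27.0%. Constitutive promoter peaks were also fewer on X, at 1.29% of genes against 8.54%. Early sustained distal peaks were at 1.09 per 1000000 bp on X and 6.38 on numbered chromosomes. The median enrichment of early sustained promoter peaks on X was 6.83-fold. The sex of the animals is not given in the sources used here, and the part of copy number, gene content or mappability was not tested.

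Some genes gathered several early sustained peaks across their alternative starts. Brd2, which encodes a bromodomain reader of acetylated histones, and Mtus1 had 6 each, and Cpeb3, Rreb1, Slc39a14 and Tmcc3 had 5 each.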
